A study of Mus musculus with 13 samples.

Results

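The 7 genes described here are 6 enzymes of cholesterol synthesis (Hmgcs1, Idi1, Fdft1, Sqle, Lss and Cyp51) and Insig1, which is not an enzyme but a brake on the pathway. They were taken from a list of sterol synthesis and uptake genes, each through probe sets annotated to that symbol alone and, where a gene had several, through the probe set with the highest mean. All 7 had such a probe set, out of 19938 genes measured in the same way. Their levels were compared over 13 mouse livers in 5 groups, and no gene of the 7 passed the test in any of the 10 comparisons between groups.

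The study measured liver RNA of 14-day-old mice that differed in Rb1, the gene of the retinoblastoma protein, a restraint on the cell cycle. Diethylnitrosamine (DEN) is a liver carcinogen that hepatocytes turn into a DNA-alkylating agent, and the treated mice were injected once into the peritoneum with 20 mg/kg and examined 24 h later. There were 2 arrays of untreated wild type mice, and with DEN there were 2 of wild type, 2 of heterozygous, 5 of N750F and 2 of knockout-labelled mice. The untreated mice were littermates given saline, per the series' design text. Wild type in both groups stands for floxed Rb1 without Cre, so the controls carry loxP sites around an exon of Rb1. Knockout-labelled mice had floxed Rb1 with a Cre gene driven by the promoter of albumin, a hepatocyte product, so Rb1 in other liver cells was not a target. Heterozygous mice had 1 functional and 1 floxed allele with the same Cre, and another label field of these mice reads LOH. N750F mice carry a point mutant of Rb1, and the descriptions name no other allele for them. Because no untreated mice of the other genotypes were measured, an N750F, heterozygous or knockout-labelled liver set against untreated wild type differs in genotype and in DEN together.

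Cholesterol is built in the liver from acetyl-CoA through HMG-CoA, mevalonate, isoprenoid units, squalene and lanosterol. The transcription factor SREBP-2 switches on nearly all genes of this route when sterols in the endoplasmic reticulum are scarce, and Insig1 and Insig2 hold SREBP and its escort Scap in that membrane when sterols are plentiful. Insig1 is itself a target of SREBP, so its RNA is widely read together with that of the enzymes.

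Levels are given as log2 of the quantile-normalized intensity plus 16, and a difference of 1 on this scale is a doubling of that sum. The arrays fell into 2 runs, read from the raw array names, with 9 arrays in run 1 and 4 in run 2. Untreated and knockout-labelled arrays lay in run 1 alone. Wild type with DEN and heterozygous had 1 array in each run, and N750F had 3 in run 1 and 2 in run 2. Median deposited intensity was 76.9 to 82.99 in run 1 and 48.2 to 73.3 in run 2. Hepatocyte markers were high in all livers, with 8 of 10 measured and a mean level of 11.70 to 12.15. Rb1 was 7.92 and 6.57 in the knockout-labelled arrays against 8.04 and 8.01 in wild type with DEN. The difference of -0.87 ± 0.37 (SE) had an adjusted p of 0.544 in limma, and the position of the Rb1 probe relative to the deleted exon was not given in the sources used here. Skeletal muscle genes averaged 8.77 in knockout-labelled array 2 and 5.68 to 5.90 in the other arrays, so results for that group are also given without each of its arrays. Y-linked genes and Xist put both wild type arrays with DEN as female and all heterozygous and knockout-labelled arrays as male, while 1 of 2 untreated and 4 of 5 N750F arrays were female. Heterozygous array 4 had both signals, with Xist at 8.05 beside 9.34 for the Y-linked genes, where Xist in the other male arrays was 5.64 to 6.16. Sex therefore moved with group, and a fit with Y-linked level as a covariate is given where it bears on a result.

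SREBP-2 binds sterol regulatory elements, usually beside sites for the general factors NF-Y (CCAAT) and Sp1 (GGGCGG). The 250 bases before the start of transcription of 3 members are printed from RefSeq (GRCm38.p6) because the results turn on these genes. They are on the plus strand at chr13:119690101-119690350 for Hmgcs1, chr13:8885356-8885605 for Idi1 and chr5:28071162-28071411 for Insig1. Capitals mark matches to TCACNCCAC, CCAAT or GGGCGG on either strand, none of which overlapped in these windows.
Hmgcs1: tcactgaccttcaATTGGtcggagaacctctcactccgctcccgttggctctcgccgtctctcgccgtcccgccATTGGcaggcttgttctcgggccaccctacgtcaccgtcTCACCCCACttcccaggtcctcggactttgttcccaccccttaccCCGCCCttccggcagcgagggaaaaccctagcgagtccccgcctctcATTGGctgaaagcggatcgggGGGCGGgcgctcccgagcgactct
Idi1: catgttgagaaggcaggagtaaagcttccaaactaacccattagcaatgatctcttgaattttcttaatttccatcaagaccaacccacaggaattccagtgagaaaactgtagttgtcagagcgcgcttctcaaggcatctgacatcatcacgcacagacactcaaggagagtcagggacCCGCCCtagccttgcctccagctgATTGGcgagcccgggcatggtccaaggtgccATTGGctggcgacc
Insig1: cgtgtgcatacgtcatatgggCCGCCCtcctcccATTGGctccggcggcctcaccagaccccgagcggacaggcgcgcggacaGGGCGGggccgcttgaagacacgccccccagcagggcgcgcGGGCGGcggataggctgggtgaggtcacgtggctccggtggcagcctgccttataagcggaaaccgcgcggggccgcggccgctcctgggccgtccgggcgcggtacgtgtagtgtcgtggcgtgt
Promoters were found for 5 of the 7 genes, Hmgcs1, Idi1, Lss, Cyp51 and Insig1. The sterol element TCACNCCAC matched in 1 of the 5, as TCACCCCAC from 137 to 129 bases before the Hmgcs1 start, and in 1.05% of 32851 RefSeq promoters of this length. All 5 held CCAAT, which 33.85% of promoters hold, and all 5 held GGGCGG, which 32.7% hold. A match is a string of letters and was not tested for binding.

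Idi1, Insig1 and Lss had higher levels in DEN-treated than in untreated wild type livers, by 0.92 to 1.22 on the log2 scale, and none of these differences passed the adjusted test. Hmgcs1 was highest in untreated and in some N750F livers and lowest in single heterozygous and knockout-labelled livers. Group means lay between 9.59 and 10.06 for Fdft1 and between 5.60 and 5.94 for Sqle, and Cyp51 varied more within wild type with DEN than between any groups. The levels of all 7 genes in the 13 arrays are plotted by group and run.

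**Figure D1:**
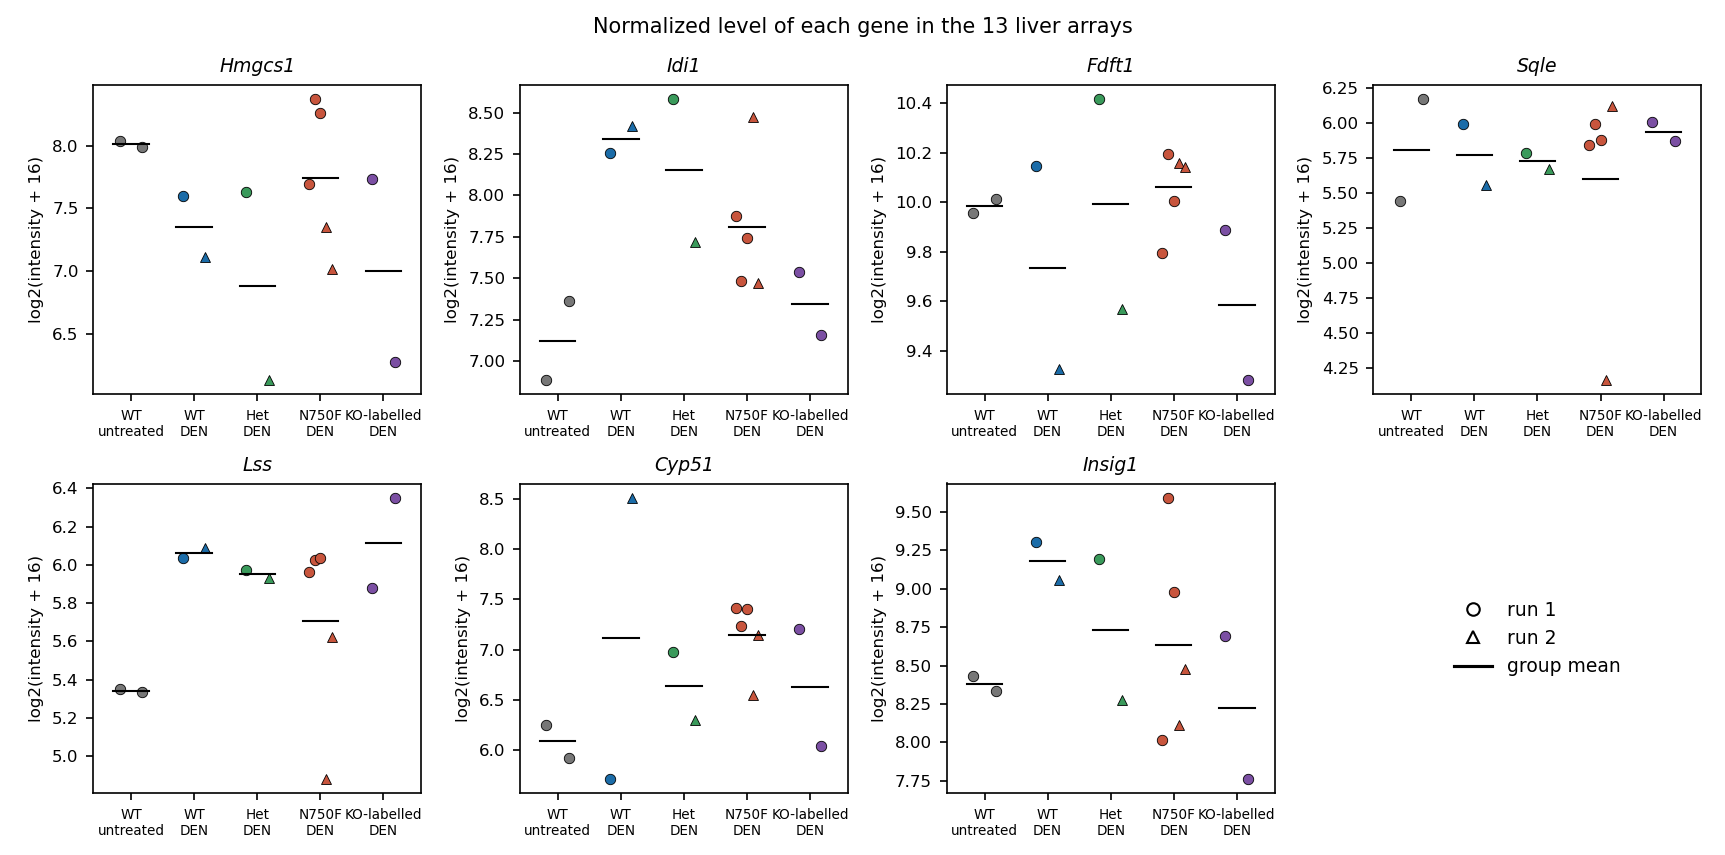
Normalized level, log2(intensity + 16), of each of the 7 genes (vertical axis, its own range in each panel) in the 5 groups (horizontal axis), with 1 symbol per array, circles for run 1, triangles for run 2 and a bar at the group mean. Both arrays of wild type with DEN lay above both untreated arrays for Idi1, Lss and Insig1, while Cyp51 had its lowest value (5.71) and its highest (8.51) in the 2 arrays of wild type with DEN.

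Hmgcs1 makes HMG-CoA, the precursor from which HMG-CoA reductase forms mevalonate. Its level (probe set 10412466) was 8.04 and 7.99 in untreated wild type and 7.60 and 7.11 in wild type with DEN. It was 7.63 and 6.13 in heterozygous livers, 7.69, 8.37, 8.26, 7.36 and 7.02 in N750F and 7.73 and 6.27 in the knockout-labelled group. Both untreated livers lay above all wild type, heterozygous and knockout-labelled livers with DEN, whereas 2 of the 5 N750F livers lay above both untreated ones. In each of the 3 groups that span both runs, the run 2 arrays were the lower ones, and in N750F the runs did not overlap (7.69 to 8.37 in run 1 and 7.02 to 7.36 in run 2). With the run term in the model, the difference between wild type with DEN and untreated was -0.18 ± 0.42 (adjusted p = 0.907), and without that term it was -0.66.

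Idi1 interconverts the isoprenoid units that are joined into farnesyl diphosphate. Its level (probe set 10482762) was 6.88 and 7.36 in untreated wild type, 8.26 and 8.42 in wild type with DEN and 8.59 and 7.72 in heterozygous livers. N750F livers had 7.88, 7.48, 7.75, 8.48 and 7.47, and knockout-labelled livers had 7.53 and 7.16. On this probe set every wild type, heterozygous and N750F liver with DEN exceeded both untreated livers, and the knockout-labelled livers overlapped with them. The order of the group means was wild type with DEN (8.34 ± 0.11, SD, n = 2), heterozygous (8.15 ± 0.61, n = 2), N750F (7.81 ± 0.41, n = 5), knockout-labelled (7.35 ± 0.27, n = 2) and untreated (7.12 ± 0.34, n = 2). The first 3 of these overlapped, and the knockout-labelled livers overlapped with N750F and with untreated ones. A dimmer probe set of Idi1 (10403413, r = 0.81 with the first over the 13 arrays) gave 7.10 and 6.84 in untreated wild type and 7.52 and 8.08 in wild type with DEN. It gave 7.79 and 7.03 in heterozygous, 7.71, 7.08, 7.18, 7.66 and 6.58 in N750F and 7.15 and 6.83 in knockout-labelled livers. Heterozygous array 4 and N750F array 2 thus lay between the untreated livers on the dimmer probe set, and N750F array 5 lay below both.

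Fdft1, squalene synthase, commits farnesyl diphosphate to sterols. Its level (probe set 10420730) was 9.96 and 10.01 in untreated wild type, 10.15 and 9.33 in wild type with DEN and 10.42 and 9.57 in heterozygous livers. It ranged from 9.80 to 10.20 with a median of 10.14 in the 5 N750F livers, and it was 9.89 and 9.28 in the knockout-labelled ones. The 13 values spanned 1.14, the narrowest range of the 7 genes, and groups overlapped except that both knockout-labelled livers lay below both untreated ones. A dimmer probe set (10412909, r = 0.87 with the first) put wild type with DEN 0.33 above untreated, while the brighter one put it at -0.10, so the sign depended on the probe set.

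Sqle, squalene epoxidase, and Lss, lanosterol synthase, convert squalene to lanosterol, and both fell below the filter on dim genes, so their differences come from the fit without that filter. Sqle (probe set 10424349) was 5.44 and 6.17 in untreated wild type, and every other liver lay between 5.56 and 6.12 except N750F array 4 at 4.16, near the floor of the scale. Lss (probe set 10364194) was 5.35 and 5.33 in untreated wild type, 6.03 and 6.09 in wild type with DEN, 5.97 and 5.93 in heterozygous and 5.88 and 6.35 in knockout-labelled livers. All 6 of these livers with DEN exceeded both untreated ones. N750F livers had 5.96, 6.03, 6.04, 4.88 and 5.62, where array 4 was below the untreated level and the 2 run 2 arrays were the lowest of the 5.

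Cyp51 is the lanosterol demethylase, the cytochrome P450 of the pathway. Its level (probe set 10527920) was 6.25 and 5.93 in untreated wild type and 5.71 and 8.51 in wild type with DEN, the lowest and the highest of all 13 values. It was 6.97 and 6.30 in heterozygous, 7.41, 7.23, 7.41, 6.55 and 7.14 in N750F and 7.21 and 6.05 in knockout-labelled livers. All 5 N750F livers exceeded both untreated ones, by 0.98 ± 0.57 in the model (adjusted p = 0.348). With either of the 2 wild type arrays with DEN left out, that difference was 1.28. Those arrays belong to neither of the groups compared and bear on this result only through the run term and spread of the shared fit. The mean of wild type with DEN (7.11 ± 1.98, SD, n = 2) describes neither of its livers.

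Insig1 retains the SREBP-Scap complex in the endoplasmic reticulum. Its level (probe set 10520362) was 8.43 and 8.33 in untreated wild type, 9.30 and 9.06 in wild type with DEN and 9.19 and 8.28 in heterozygous livers. N750F livers had 8.01, 9.59, 8.98, 8.11 and 8.48, and knockout-labelled livers had 8.69 and 7.76. Both wild type livers with DEN exceeded both untreated and both knockout-labelled livers, while N750F livers spread over nearly the whole range.

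The comparison of wild type with and without DEN asks what the carcinogen does to these genes when Rb1 is intact. Limma, with p-values adjusted by Benjamini-Hochberg over 14953 genes, called 0 of the 5 members that passed the filter, and it called 0.689% of all genes (103). At an unadjusted p under 0.05 there were 2 members, Idi1 and Insig1, against 13.7% of all genes. Idi1 was 1.22 ± 0.39 higher with DEN (SE, 95% interval 0.40 to 2.05, 2.33-fold, adjusted p = 0.173), and within run 1 alone the difference was 1.14. Insig1 was 1.08 ± 0.45 higher (0.12 to 2.05, 2.12-fold, adjusted p = 0.300), and 0.92 within run 1. Run 2 holds no untreated array, so it gives no such value. Lss was 0.92 ± 0.33 higher (0.22 to 1.63, adjusted p = 0.284 over all genes without the filter), whereas Sqle differed by 0.24 ± 0.48 (adjusted p = 0.916). Cyp51 differed by 0.92 ± 0.69 (-0.56 to 2.40, adjusted p = 0.620). That value was -0.38 without wild type array 4 with DEN and 2.98 without array 3, where its adjusted p was 0.0184. Each of these leaves 1 wild type array with DEN, which is assumed to vary like the arrays of the other groups, and the same holds wherever 1 array of a pair is left out. The arrays of the 2 groups did not overlap for 3 of the 5 tested members, higher for 2 and lower for Hmgcs1, and with 2 arrays a group that held for 40.9% of all genes.

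The 5 tested members had a median difference of 0.92 between these groups, beside -0.02 over all genes tested. That median was the Cyp51 value, and it was 0.16 without wild type array 4 with DEN, which equals run 1 alone, and 1.35 without array 3. Marker lists of other cells moved in the same comparison, in which the arrays did not overlap for 40.9% of all genes. The mean of 10 macrophage and Kupffer cell markers was 7.87 to 8.28 in untreated and 6.89 to 6.90 in DEN-treated wild type, and the mean of 9 proliferation genes was 7.87 to 8.13 and 6.42 to 6.51. Neutrophil (6.01 to 6.27 and 5.25 to 5.34), erythroid (6.67 to 6.68 and 5.83 to 5.94) and stellate cell lists (8.97 to 9.33 and 8.12 to 8.76) were also lower with DEN. So were endothelial (8.03 to 8.20 and 7.38 to 7.82) and cholangiocyte lists (6.11 to 6.41 and 6.04 to 6.08), while skeletal muscle genes overlapped. The neutrophil and erythroid means with DEN lay at or below the filter level of 5.94, and 5 of 8 erythroid markers were measured. Hepatocyte markers were 11.94 in both untreated livers and 11.85 to 12.15 with DEN. Whole liver was measured, so fewer cells of a type and less RNA per cell cannot be told apart, and the part of cell makeup in the Idi1, Insig1 and Lss values was not tested. Both wild type livers with DEN were female. With the level of Y-linked genes as a covariate the Idi1 difference was 1.18 and the Insig1 difference 0.85.

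**Figure D2:**
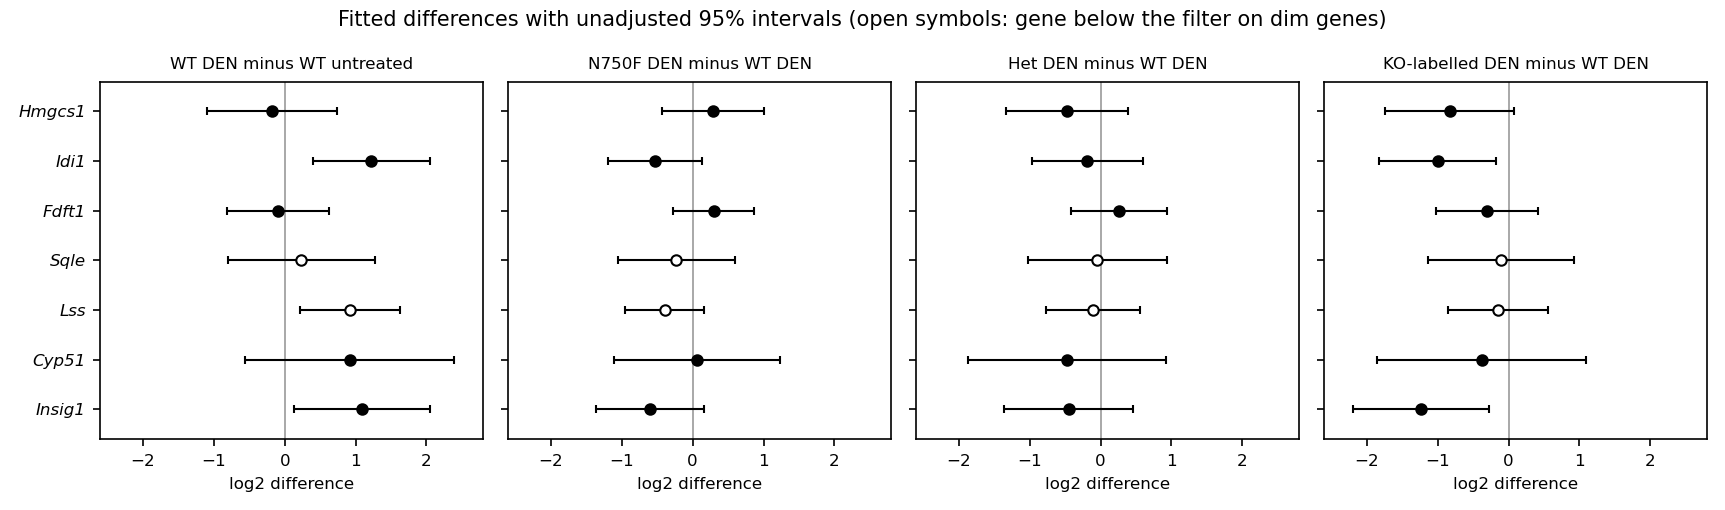
Fitted log2 difference (horizontal axis) of each of the 7 genes for DEN against untreated in wild type and for N750F, heterozygous and knockout-labelled against wild type after DEN, with bars for the unadjusted 95% interval and open symbols for the 2 genes below the filter on dim genes. The intervals of Idi1, Lss and Insig1 lay above 0 in the first panel and those of Idi1 and Insig1 below 0 in the last, and the adjusted p was above 0.05 for all of them.

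The other 3 groups with DEN were set against the same untreated arrays, which the values therefore share. Limma called 0 of 5 members for heterozygous livers (1.4% of all genes), 0 of 5 for N750F (6.21%) and 0 of 5 for knockout-labelled (0.0869%). In each of the 3, 1 member had an unadjusted p under 0.05, against 15.6%, 22.2% and 9.48% of all genes. Idi1 was 1.04 ± 0.39 above untreated in heterozygous (adjusted p = 0.206), 0.69 ± 0.32 in N750F (adjusted p = 0.224) and 0.22 ± 0.37 in knockout-labelled livers (adjusted p = 0.904). The heterozygous value was 0.36 without heterozygous array 3, the higher of that group. On the dimmer Idi1 probe set the 3 differences were 0.52 ± 0.39, 0.33 ± 0.33 and 0.02 ± 0.37. The arrays did not overlap with the untreated ones for 3 of the 5 members in heterozygous (43.8% of all genes), 2 in N750F (25.4%) and 2 in knockout-labelled livers (40%). For Hmgcs1 the same 3 differences were -0.66 ± 0.42, 0.11 ± 0.35 and -1.01 ± 0.40, with an adjusted p of 0.436 for the last. Without knockout-labelled array 2, the one with muscle genes, that last value was -0.28, and without array 1 it was -1.74. Lss was 0.81, 0.53 and 0.77 above untreated in the 3 groups, with adjusted p-values of 0.298, 0.345 and 0.537 in the fit without the filter. N750F was the comparison with the most calls over all genes, and the 5 tested members were positive in it with a median of 0.48 against -0.06 over all genes. Without N750F array 2 that median was 0.21, and all 5 were still positive.

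The comparisons among the 4 genotypes after DEN ask whether levels after DEN differ with the state of Rb1. Only wild type was measured untreated, so a changed response cannot be told apart from a difference present before DEN. In N750F against wild type, limma called 0 of 5 members and 1.42% of all genes, and at an unadjusted p under 0.05 it was 0 members against 14.7% of all genes. Idi1 was -0.53 ± 0.31 (adjusted p = 0.445) and Insig1 -0.60 ± 0.36 (adjusted p = 0.457), with 95% intervals of -1.19 to 0.13 and -1.37 to 0.16. Hmgcs1 (0.29 ± 0.34), Fdft1 (0.29 ± 0.27) and Cyp51 (0.06 ± 0.55) lay on the other side of 0. The Cyp51 difference was -1.69 without wild type array 3 (adjusted p = 0.0443) and 1.66 without array 4 (adjusted p = 0.280), so its direction turned on which of the pair was kept. The groups overlapped for all 5 members, where 13.7% of all genes had groups that did not.

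In heterozygous against wild type, 0 of 5 members and 0.00669% of all genes (1 gene) were called, and 0 members had an unadjusted p under 0.05 against 6.88% of all genes. The differences ran from -0.48 (Hmgcs1) to 0.26 (Fdft1), and the arrays overlapped for all 5, where 24.9% of all genes had groups that did not. For Cyp51, leaving out wild type array 3 turned -0.47 into -2.15 (adjusted p = 0.0458), and leaving out array 4 turned it into 1.20 (adjusted p = 1.00).

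In the knockout-labelled group against wild type, 0 of 5 members and 0.0468% of all genes were called, and 2 members had an unadjusted p under 0.05 against 8.55% of all genes. Insig1 was -1.24 ± 0.45 (95% interval -2.20 to -0.28, 2.36-fold lower, adjusted p = 0.454) and Idi1 was -0.999 ± 0.386 (-1.83 to -0.17, 2.00-fold lower, adjusted p = 0.494). Both genes had knockout-labelled arrays below both wild type arrays, as did 14.5% of all genes. All 5 members were negative in this comparison, with a median of -0.83 beside -0.01 over all genes. Without knockout-labelled array 2 the median was -0.10 and 2 of the 5 were positive (Fdft1 at 0.0047 and Cyp51 at 0.20), and without array 1 it was -1.19 with all 5 negative. The same groups differed in macrophage markers, with list means of 7.46 to 7.91 in knockout-labelled and 6.89 to 6.90 in wild type livers, and in proliferation genes, with 7.43 to 9.19 and 6.42 to 6.51, and the part of these in the member values was not tested. The Insig1 difference was -0.77 without knockout-labelled array 2 and -1.71 without array 1. These 2 groups differ fully in sex, and with Y-linked level as a covariate Insig1 differed by -0.66 and Idi1 by -0.88. Within run 1 the values were -1.08 for Insig1 and -0.91 for Idi1, and run 2 holds no knockout-labelled array.

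N750F against the knockout-labelled group gave the smallest unadjusted p for Hmgcs1, whose level was 1.12 ± 0.35 higher in N750F (95% interval 0.36 to 1.88, 2.17-fold, adjusted p = 0.277). Limma called 0 of 5 members here and 0% of all genes (0 of 14953), although 12.2% had an unadjusted p under 0.05. The Hmgcs1 difference was 1.85 with an adjusted p of 0.0133 without knockout-labelled array 1 and 0.39 without array 2, and the knockout-labelled values of 7.73 and 6.27 enclosed 3 of the 5 N750F values. All 5 members were positive, with a median of 0.59 against 0.00 over all genes. Without knockout-labelled array 2 the median was 0.28 and Cyp51 was at -0.14, and without array 1 the median was 1.02. In N750F against heterozygous, 0 of 5 members and 1.64% of all genes were called, and Hmgcs1 was 0.76 ± 0.34 higher (adjusted p = 0.413, 0.48 within run 1). In knockout-labelled against heterozygous, 0 of 5 and 0.301% were called, with Idi1 at -0.81 ± 0.39 and Insig1 at -0.79 ± 0.45.

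A single F-test per gene over the 4 groups with DEN gave adjusted p-values of 0.287 for Hmgcs1, 0.426 for Idi1 and Insig1, 0.542 for Fdft1 and 0.861 for Cyp51, and it called 1.34% of all genes. Over the 10 comparisons together, limma called 0 of the 50 member values and 1.18% of the values of all genes. At an unadjusted p under 0.05 there were 9 of 50 (18%), and 12.4% over all genes, so the members' share was near the background. The 95% intervals reached 0.57 to 1.48 to either side of an estimate, and with 2 arrays in most groups a doubling of these genes was not detectable in every comparison.

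The 7 genes did not move as 1 block over the 13 livers. Pearson's r between pairs ranged from -0.42 (Fdft1 with Lss) to 0.62 (Hmgcs1 with Fdft1), with a median of 0.22 over 21 pairs, over arrays that share run and group. Insig1 had the highest correlation with the mean of the other 6 (r = 0.78), and Idi1 had the lowest (r = 0.13). The mean level of all 7 was 7.19 and 7.30 in untreated livers, 7.58 and 7.72 in wild type with DEN, 7.79 and 7.09 in heterozygous, 7.10 to 7.84 in N750F and 7.56 and 6.96 in knockout-labelled ones. Wild type was the 1 group with DEN in which every array lay above the untreated ones.

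The rest of the cholesterol pathway was read from a list of 15 further enzymes, of which 12 had a single-symbol probe set and 11 passed the filter. In wild type with DEN against untreated, 0 of the 11 were called in either direction, beside 0.689% of all genes. Of the 11, 6 were positive and 5 negative, and their median was 0.24 beside -0.02 over all genes. Hsd17b7, a ketosteroid reductase of the late pathway, was 0.65 ± 0.27 (adjusted p = 0.309), and Nsdhl, which removes methyl groups of lanosterol together with Msmo1, was 0.62 ± 0.32 (adjusted p = 0.428). The sterol isomerase Ebp was -0.52 ± 0.26 (adjusted p = 0.397). Msmo1 repeated the picture of Cyp51, with 6.40 and 8.39 in the 2 arrays of wild type with DEN and 6.61 and 6.70 in untreated livers. For the mevalonate enzymes the differences were 0.36 for Mvk, -0.36 for Pmvk, -0.33 for Mvd and 0.39 for Fdps, and for the last steps they were -0.17 for Sc5d and 0.24 for Dhcr7. Tm7sf2 fell below the filter.

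Lbr was the only one of the 11 that was called in any comparison. Over all comparisons together, limma called 1.18% of the values of all genes, and a difference of the list from that share was not tested. Lbr encodes a protein of the inner nuclear membrane that is also a sterol reductase. Its level was 7.03 and 6.53 in wild type with DEN and 7.67, 7.66, 7.58, 8.13 and 8.11 in N750F, so all N750F livers were higher, by 1.07 ± 0.23 (adjusted p = 0.0394). Untreated livers had 7.06 and 7.15. The call was lost without either untreated array, wild type array 4, either heterozygous array or any single N750F array, with differences of 0.60 to 1.11, and within run 1 alone the difference was 0.60. With Y-linked level as a covariate it was 1.09 (adjusted p = 0.0580). Proliferation genes moved in the same comparison, with list means of 6.42 to 6.51 in wild type and 8.60 to 8.96 in N750F. All 9 tested genes of that list were called higher, beside 1.42% of all genes called in either direction. Their part in the Lbr value was not tested.

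Genes around the pathway were sorted into 6 further lists: regulators of SREBP, uptake and transport of sterols, efflux and esterification, bile acid synthesis, fatty acid synthesis and other isoprenoid branches. Together with the enzymes these 7 lists had 63 tested genes, and 15 of their 630 values were called (2.38%), in 9 genes, beside 1.18% of the values of all genes. In the arrays of run 1 alone 0 were called. With Y-linked level as a covariate 8 of the 15 were called, and each of the other 7 is named beside its gene. No regulator of SREBP was called in wild type with DEN against untreated, a comparison that called 0.689% of all genes. There Srebf1 was -0.21 ± 0.30, Srebf2 -0.40 ± 0.28 and Scap -0.37 ± 0.37. In the same comparison all 5 tested regulators were negative, with a median of -0.37. Insig2, the partner of Insig1, was 10.09 and 10.46 in untreated livers, 9.27 and 7.81 in wild type with DEN, 9.61 and 9.34 in heterozygous, 9.62 to 10.30 in N750F and 10.06 and 10.17 in knockout-labelled livers. It was higher in N750F than in wild type by 1.41 ± 0.31 (adjusted p = 0.0375), and the DEN difference of -1.53 ± 0.38 in wild type had an adjusted p of 0.0915. Insig1 and Insig2 thus had opposite signs in both comparisons, a difference between genes that was not tested. The Insig2 call was lost without wild type array 4 (0.76, adjusted p = 0.893), either untreated or heterozygous array, or N750F array 1, 2, 4 or 5. It was also lost with Y-linked level as a covariate (1.43, adjusted p = 0.0572).

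**Figure D3:**
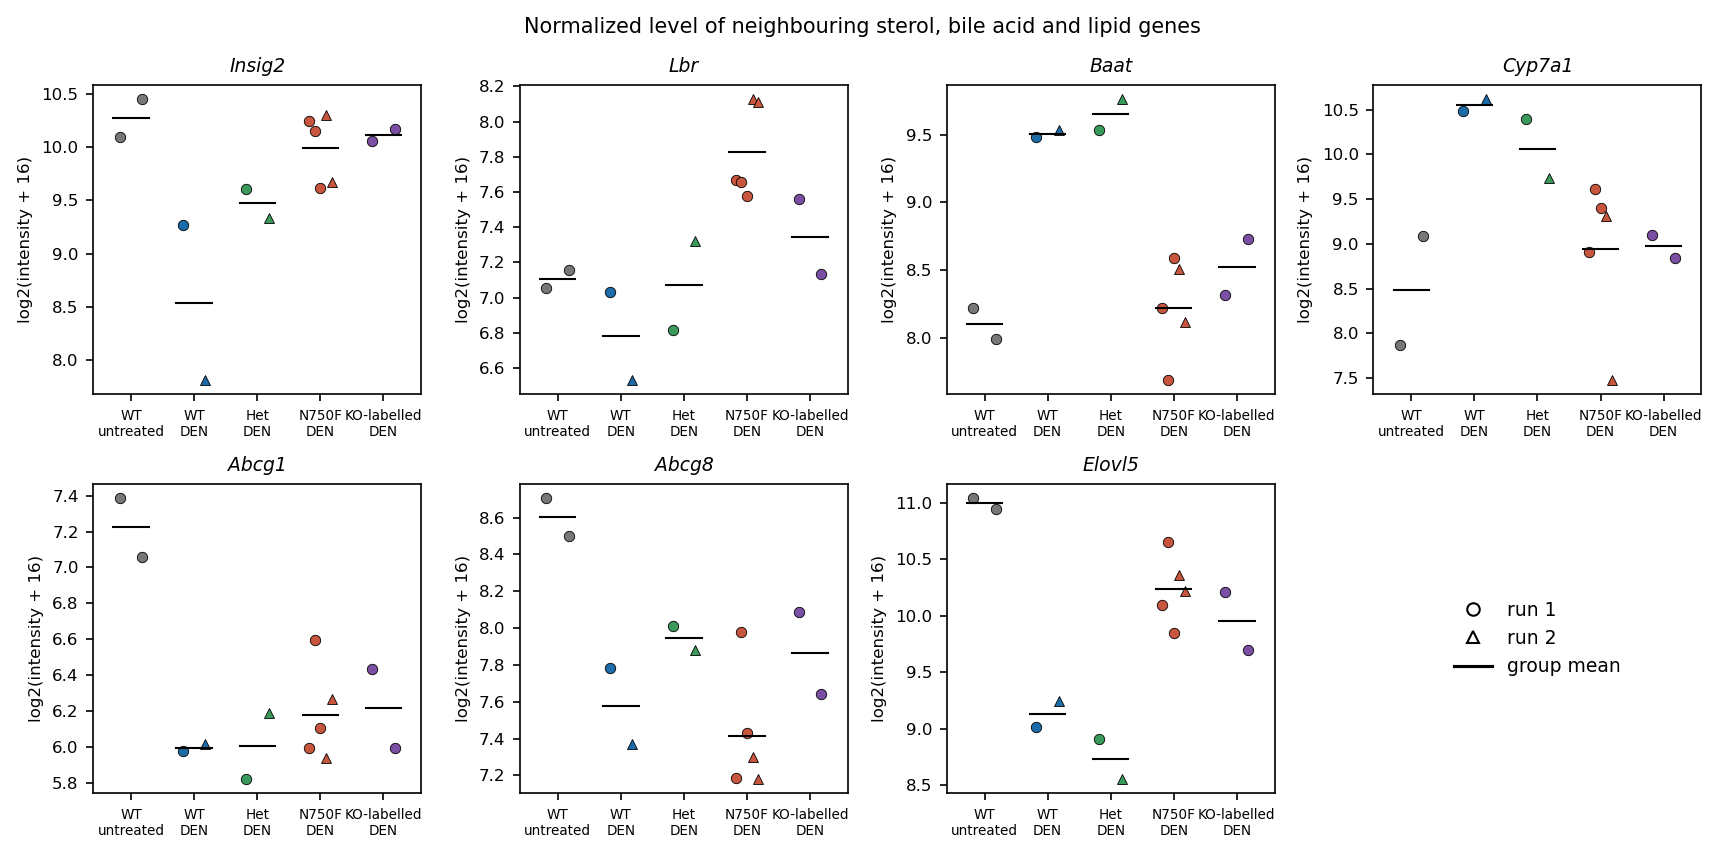
Normalized level, log2(intensity + 16), of 7 genes beside the synthesis enzymes (vertical axis, its own range in each panel) in the 5 groups, with 1 symbol per array, circles for run 1, triangles for run 2 and a bar at the group mean. Elovl5 was 10.95 and 11.05 in untreated livers and 8.55 to 9.25 in wild type and heterozygous livers with DEN, and Baat lay between 9.48 and 9.77 in those livers and at or below 8.73 in all others.

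Abcg1 and Abcg8, sterol transporters driven by the oxysterol receptors LXR, fell by 1.05 ± 0.25 (adjusted p = 0.0281) and 1.08 ± 0.25 (adjusted p = 0.0258) in N750F against untreated, 2 of 8 tested genes of their list, in the comparison that called 6.21% of all genes. Abcg8 was 8.71 and 8.50 in untreated livers and 7.18 to 7.98 in N750F. Its call was lost without either untreated array or N750F array 3 (-0.98 to -1.18), and that of Abcg1 without either untreated array or N750F array 1 or 3 (-0.89 to -1.22 over all arrays left out in turn). In wild type the DEN difference of Abcg1 was -1.24 ± 0.30 (adjusted p = 0.0791). None of the 8 tested uptake and transport genes, and none of the 8 tested genes of other isoprenoid branches, was called in any comparison. The share over all genes and all comparisons was 1.18% of values, and a difference of these lists from it was not tested.

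In bile acid synthesis, which consumes cholesterol, Baat conjugates bile acids with amino acids and was 8.22 and 7.99 in untreated livers, 9.48 and 9.53 in wild type with DEN and 7.69 to 8.59 in N750F. It was lower in N750F than in wild type by -1.27 ± 0.25 (adjusted p = 0.0234) and than in heterozygous by -1.41 ± 0.25 (adjusted p = 0.00950), and higher in heterozygous than in untreated by 1.47 ± 0.31 (adjusted p = 0.0361). The N750F-against-wild-type call was lost without either wild type array with DEN or N750F array 5 (-1.20 to -1.32), that against heterozygous without either heterozygous array (-1.29 to -1.52 over all left out), and that of heterozygous against untreated without any untreated, heterozygous or DEN-treated wild type array or N750F array 5 (1.36 to 1.59 over all arrays left out). With Y-linked level as a covariate, N750F against heterozygous (-1.31, adjusted p = 0.181) and heterozygous against untreated (1.39, adjusted p = 0.108) were not called. Cyp7a1, the rate-limiting enzyme of the classical route, was 7.87 and 9.09 in untreated livers and 10.48 and 10.62 in wild type with DEN, a difference of 2.38 ± 0.55 with an adjusted p of 0.0692. Acox2, a peroxisomal side-chain oxidase, was -0.94 ± 0.24 in N750F against untreated (adjusted p = 0.0374), a call lost without either untreated array or N750F array 1, 2 or 3 (-0.77 to -1.02).

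Among fatty acid genes, Elovl5, an elongase of polyunsaturated fatty acids, fell by 1.88 ± 0.31 with DEN in wild type (adjusted p = 0.0190) and by 2.28 ± 0.31 in heterozygous against untreated livers (adjusted p = 0.00389). It was higher in N750F than in wild type (1.11 ± 0.25, adjusted p = 0.0414) and than in heterozygous (1.51 ± 0.25, adjusted p = 0.00573). The heterozygous call against untreated held without any single array. The wild type one was lost without either array of either group (-1.71 to -1.98), the N750F one against wild type without any array other than N750F array 3 and the 2 knockout-labelled ones (0.96 to 1.24 over all left out), and that against heterozygous without heterozygous array 4 (1.28 to 1.76 over all left out). Fads2, a desaturase of the same fatty acids, fell by 2.13 ± 0.32 in heterozygous against untreated (adjusted p = 0.00637) and was 1.27 ± 0.26 higher in N750F than in heterozygous (adjusted p = 0.0225). Its first call was lost without untreated array 1 or heterozygous array 4 (-1.73 to -2.76 over all left out) and its second without heterozygous array 4 or N750F array 2, 4 or 5 (0.78 to 1.81). With Y-linked level as a covariate, Elovl5 was not called in N750F against wild type (1.12, adjusted p = 0.0620) or heterozygous (1.46, adjusted p = 0.114), nor Fads2 in N750F against heterozygous (1.11, adjusted p = 0.326). Thrsp, a lipogenic gene of the liver, was -2.04 ± 0.43 in N750F against wild type (adjusted p = 0.0341), a call lost without wild type array 4, either heterozygous array or N750F array 1, 3 or 5 (-1.56 to -2.57 over all left out).

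The genes whose pattern was most like that of the 7 were ranked by Pearson's r with the mean of the members' z-scores over the 13 arrays, as a description of arrays that share run and group. They were Tex2 (r = 0.94), Hacd3 (0.92), Hbs1l (0.91), Ehhadh (0.91), Gna13 (0.91), Lgr4 (0.89), Med6 (0.89), Nxpe2 (0.88), Tent4b (0.88) and Tapt1 (0.88). With the difference between runs removed, the values of these 10 were 0.87 to 0.94. Of the pathway genes, Me1, malic enzyme, stood highest (r = 0.87, rank 16 of 13882), before Lcat (0.76) and Nsdhl (0.75). Pmvk, phosphomevalonate kinase, stood near the other end (r = -0.82, rank 13863), although its enzyme works between Hmgcs1 and Idi1.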

How the data were processed

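RNA of frozen liver was labelled after amplification with the WT-Ovation Pico kit and read on Affymetrix arrays with 1 colour, per the labels' protocols. The table deposited by the authors holds a linear intensity for each array and each of 35556 probe sets. RMA and Affymetrix Expression Console 1.1 appear in the submitters' processing notes without a stated role. Genome build and probe positions are not given in the sources used here.

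The intensities were quantile-normalized and log2(intensity + 16) was taken. The offset makes changes of dim genes look smaller. GEO's array annotation gave 21789 probe sets 1 symbol, 1621 several and 12146 none, and 21698 symbols were updated through a gene table of GRCm38.p6. Genes with a mean under the 25th percentile (level 5.94) were left out, and 14953 were tested with limma 3.58.1 (lmFit and eBayes, R 4.3.3) in 1 model of the 5 groups and the run, with 7 residual degrees of freedom. The Benjamini-Hochberg adjustment ran over all tested genes of each of the 10 comparisons, with 0.05 as the threshold. Unless otherwise stated, differences are log2 ± SE and every adjusted p is limma's. The run term itself called 2187 genes.

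The labels give no animal for each array, so p-values measure the spread between arrays. No 2 arrays held the same values, and the number of arrays limits the precision. The model was tested on simulated data. Named genes are all 7 members, the measured genes of the synthesis list, up to 4 called genes per list, Rb1 and the 10 most alike genes, and Cyp7a1, Me1, Lcat, Srebf1, Srebf2 and Scap were added after their values were seen. The members, lists and tests were chosen with earlier results of these data known.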

Additional observations from a re-analysis of the deposited data

Results flagged for a closer look

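Sqle in N750F array 4 stood far from the others of its group, at 4.16 on the log2 scale against 5.84 to 6.12 in the other 4 N750F arrays. Its deposited intensity there was 0.0156, or 1.90 after normalization, so 4.16 lies near the floor that the offset of 16 sets. That array also had the lowest median intensity (48.2). Its gap to the nearest array was 0.856 of the group's range, above the critical value of 0.71 for 5 samples. Of 20 genes examined in this way in the N750F group, 1 passed, and chance gives about 1 in 20. Sqle is below the filter on dim genes, and the same array also had the lowest N750F levels of Lss (4.88) and Cyp51 (6.55) and the highest of Idi1 (8.48).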

How the results depend on the processing

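The differences of the tested members and of the called pathway genes, and the counts of calls, were recomputed under 27 alternatives. Sqle and Lss, which fell below the filter, the F-tests and the correlations were not recomputed. Comparisons with the knockout-labelled group had 26 alternatives. Of the 27 alternatives, 13 left out 1 array each and 1, the dimmer probe sets of Idi1 and Fdft1, was chosen after seeing the data. The count of member calls was 0 in 24 of them and 0 to 4 over the arrays left out, through Cyp51 (4 calls without wild type array 3 with DEN, 1 without array 4) and Hmgcs1 (1 call without knockout-labelled array 1). Of the 50 member differences, 0 to 9 changed sign in a setting. For DEN against untreated in wild type, Hmgcs1 reversed without wild type array 3 (0.19, range -0.41 to 0.19 over arrays left out). Fdft1 reversed without quantile normalization (0.039), with arrays scaled to a common median (0.064), in run 1 alone (0.16), with the mean of a gene's probe sets (0.11), with the dimmer probe set (0.33) and without wild type array 4 (range -0.52 to 0.16). Cyp51 reversed in run 1 alone (-0.38) and without wild type array 4 (range -0.38 to 2.98). Idi1 stayed at 0.78 to 1.46 and Insig1 at 0.80 to 1.35, with adjusted p-values of 0.0700 to 0.748 and 0.166 to 0.770. The cause of these changes was not tested, except that fewer arrays were used where arrays were left out.

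The 15 calls in the other pathway genes were 8 without quantile normalization, 9 with a common median, 9 with an offset of 1, 7 without the run term, 0 in run 1 alone, 8 with Y-linked level as a covariate and 6 to 28 with 1 array left out. They were 22 with an offset of 50, 22 without both knockout-labelled arrays, 21 with a trended and robust fit, 17 with genes under the median left out, 15 with the mean of probe sets and with the dimmer probe sets, and 14 without the filter. Calls over all genes changed as well, so these shifts were not particular to the pathway. From 1764 in the main setting they went to 902 without quantile normalization, 1105 with a common median and 1082 with an offset of 1. They were 465 without the run term, 984 with Y-linked level, 2418 with an offset of 50 and 2486 with a trended and robust fit. The median difference over all genes lay within 0.06 of 0 in every comparison. This held in the main fit, without quantile normalization, with a common median and with genes under the median left out. The deviations from group means of arrays with the same replicate number correlated from 0.27 to 0.45 for numbers 3 and 4 (6 pairs) and from -0.13 to 0.13 for numbers 1 and 2 (6 pairs). In a group of 2 arrays the deviations mirror each other, so where both groups held 2 arrays both numbers gave the same value. All arrays of number 4 lie in run 2, no label ties a number to a litter or day, and not every pair passed 0.1, so the numbers were not taken as pairs. With the replicate block the calls were 0 for the members, 0 for the other pathway genes and 190 over all genes. With 2 arrays in 4 of the 5 groups, and Sqle and Lss near the lower end of the signal, the member differences did not stand out from the spread between arrays after adjustment.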
